A study of Homo sapiens with 12 samples.

Results

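The SLC2A genes encode the facilitative glucose transporters, the GLUT proteins, and 10 of them were measured by 13 probes on 12 arrays of HepG2, a human hepatocellular carcinoma cell line used as a model of liver cells. The members were found by gene symbol, as every probe whose symbol in the platform annotation, current or older, was SLC2A1, SLC2A2, SLC2A3, SLC2A4, SLC2A5, SLC2A6, SLC2A8, SLC2A9, SLC2A10 or SLC2A12, which gave 13 of the 48803 probes, for 10 of the 18852 genes named on the array. Total RNA came from 6 cultures in high glucose (25 mM) and 6 cultures in low glucose, each after 8 h of treatment. The sample labels give the low glucose medium as 2.7 mM and the methods as 0 mM, and the files do not settle which is right. All 12 cultures were of the same line, kept in 25 mM glucose as a stock and held for 16 h in 2.7 mM before the treatment, so no array shows the start of the 8 h. Each probe's brightness was read on an Illumina HumanHT-12 BeadChip and is given as a linear intensity in arbitrary units, quantile normalized across the arrays without subtraction of background.

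GLUT proteins carry hexoses across membranes down the concentration gradient, without energy, and which isoforms a cell makes sets the sugar it can take up and at what glucose level. In liver, the low-affinity isoform encoded by SLC2A2 lets glucose move both ways with the level in blood, while SLC2A1 and SLC2A3 encode high-affinity isoforms that are abundant in dividing, hypoxic and tumour cells. SLC2A1 is a known target of hypoxia-inducible factor (HIF) and of MYC, and its protein is removed from the cell surface with the help of TXNIP.

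The intensities ran from 47.2 to 36779, with a median of 90.81, and 58.5% of the probes had a mean below 100, where background makes up much of the signal and a fold change understates the change in RNA. Over all probes, the correlation between 2 arrays was 0.992 to 0.995 within a group and 0.985 to 0.988 across groups, and it was lowest on average for low glucose replicate 5. Hepatocyte markers were bright: their summed intensity over 8 genes was 114122 to 129535 in high glucose and 114294 to 124661 in low glucose. Of 9 markers of fibroblasts, endothelium and leukocytes, 6 averaged below 100 in both groups, with sums of 1579 to 1731 in high glucose and 1597 to 1820 in low glucose. Across all probes, 7904 passed an adjusted p of 0.05 between the groups (16.2%), 4278 of them higher (8.77%) and 3626 lower (7.43%) in high glucose, by limma on log2 intensities with Benjamini-Hochberg adjustment over the whole table. This test and this threshold stand behind every statement below that a gene rose or fell, and log2 changes are high minus low glucose with a standard error (SE) or a 95% interval. The sources do not say which cultures shared a day or a passage, so a p-value measures only the spread between these arrays.

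No SLC2A probe of the 10 genes rose in high glucose and 4 of 13 fell (30.8%, against 7.43% of all probes that fell), 1 each for SLC2A1, SLC2A3, SLC2A8 and SLC2A9. A Cyber-T style test called the same number, 4 lower and 0 higher, and so did an unadjusted p of 0.05. The groups did not overlap for 2 of the 13 probes, those of SLC2A1 and 1 of SLC2A9, against 10.5% of all probes. Neither share of all probes was matched for brightness, since 58.5% of all probes averaged below 100, against 4 of these 13. The gap between 30.8% and 7.43% therefore does not measure an excess of falls at like brightness. The median log2 change over the 13 probes was -0.08, against 0.00 over all probes, with 8 changes below 0 and 5 above. The 9 probes that did not pass the test changed by -0.13 to 0.13 on the log2 scale, with adjusted p of 0.27 to 0.99. Their 95% bounds ran from -0.30 to 0.39 at the extremes over these 9 probes. The intervals differed in width, and a change within a probe's own interval remains possible for that probe.

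**Figure D1:**
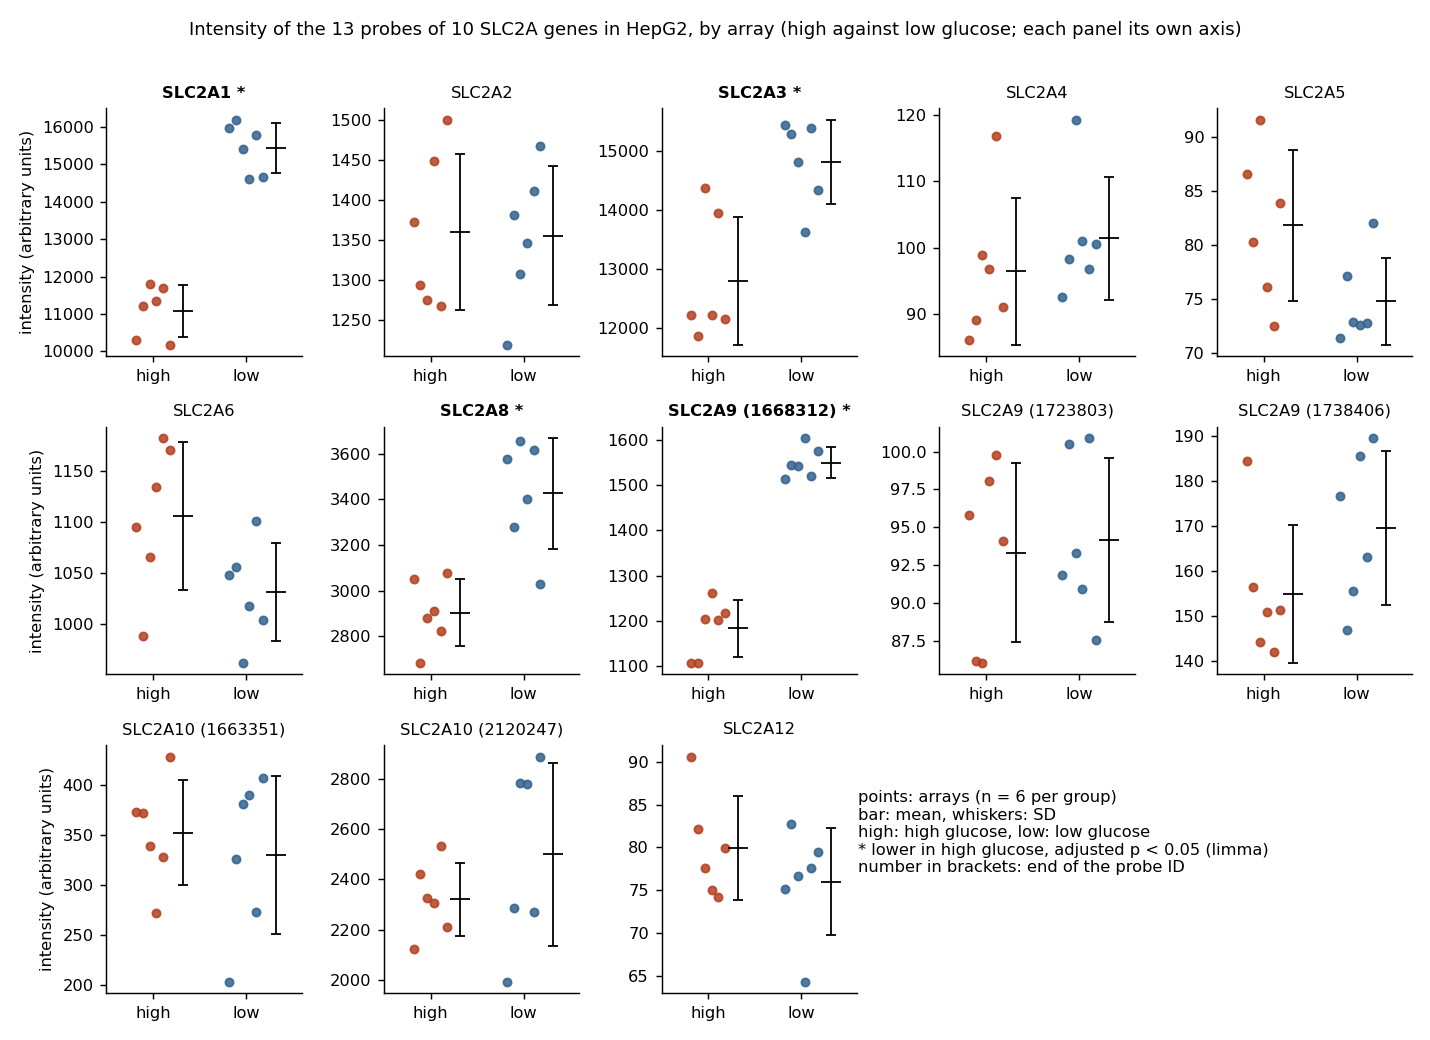
Intensity in arbitrary units (vertical axes, each panel its own scale) of the 13 probes on each array, high glucose left of low glucose, with the mean and SD of 6 arrays beside the points. The SLC2A1 arrays lie between 10179 and 11790 in high glucose and between 14613 and 16192 in low glucose, while the SLC2A2 arrays of both groups cover much the same range.

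The promoters of SLC2A1, SLC2A8 and SLC2A2 are shown because both SLC2A1 and SLC2A8 fell while SLC2A2, the liver isoform, did not pass the test. Each window runs from 250 bases before to 50 bases after the gene start, on the gene's own strand, from RefSeq on GRCh38.p14. Capitals mark every GGGCGG (the GC box bound by SP1) or ACGTG (a form of the core of the element bound by HIF) found on either strand. Other forms of that core were not searched for, so a window without ACGTG may still hold one. SLC2A1 lies at chr1:42958819-42959118 (minus strand), SLC2A8 at chr9:127396919-127397218 (plus strand) and SLC2A2 at chr3:171026671-171026970 (minus strand).
SLC2A1: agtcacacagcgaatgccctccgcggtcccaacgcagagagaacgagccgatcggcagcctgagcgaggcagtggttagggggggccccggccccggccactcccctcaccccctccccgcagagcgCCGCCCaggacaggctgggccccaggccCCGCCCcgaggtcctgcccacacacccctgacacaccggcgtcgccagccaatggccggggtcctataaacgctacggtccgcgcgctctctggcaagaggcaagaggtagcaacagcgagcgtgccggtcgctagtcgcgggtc
SLC2A8: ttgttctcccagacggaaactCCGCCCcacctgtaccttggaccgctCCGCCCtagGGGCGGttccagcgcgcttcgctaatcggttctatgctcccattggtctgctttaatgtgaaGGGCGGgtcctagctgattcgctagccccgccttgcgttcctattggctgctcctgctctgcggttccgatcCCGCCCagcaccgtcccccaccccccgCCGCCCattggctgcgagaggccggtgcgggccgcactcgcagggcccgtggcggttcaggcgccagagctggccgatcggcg
SLC2A2: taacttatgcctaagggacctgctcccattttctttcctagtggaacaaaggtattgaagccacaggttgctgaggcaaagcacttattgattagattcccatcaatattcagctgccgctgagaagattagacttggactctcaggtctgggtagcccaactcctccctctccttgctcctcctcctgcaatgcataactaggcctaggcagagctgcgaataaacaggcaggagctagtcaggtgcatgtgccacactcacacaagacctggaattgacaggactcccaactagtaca
The SLC2A1 window held 2 GGGCGG and no ACGTG, the SLC2A8 window 6 GGGCGG and no ACGTG, and the SLC2A2 window none of either. SLC2A9 has 2 annotated starts in the table, 1 with a single GGGCGG (chr4:10021448-10021747) and 1 with a single ACGTG (chr4:10040221-10040520), both on the minus strand. The SLC2A6 window held 4 GGGCGG, that of SLC2A10 held 3 GGGCGG and 1 ACGTG, and those of SLC2A5 and SLC2A12 held neither. CACGTG, the E-box core that contains ACGTG, was in none of the 9 windows. In the whole table of 35116 promoters of this length, 45.0% held GGGCGG, 21.4% held ACGTG and 7.26% held CACGTG, so windows with and without these letters are both common, and a match is a description of the sequence only. SLC2A3 and SLC2A4 were matched to no window.

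SLC2A1, the widely expressed high-affinity glucose transporter GLUT1, had the largest fall of the 13 probes. Its probe, ILMN_1659027, read 10296, 11211, 11789.8, 11342, 11702 and 10179 in the 6 high glucose arrays. In the 6 low glucose arrays it read 15966, 16192, 15399, 14613, 15776 and 14665. Every high glucose array lay below every low glucose array, with a gap between the groups wider than the range within either of them. The means were 11087 ± 693 in high glucose and 15435 ± 669.5 in low glucose (SD, n = 6 each), a log2 change of -0.48 (SE 0.05, 95% interval -0.57 to -0.38) or 1.39-fold lower, with an adjusted p of 1.1e-08 (limma). Leaving out any 1 array moved the log2 change only between -0.50 and -0.45.

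SLC2A3 encodes GLUT3, the high-affinity transporter best known from neurons. Its probe, ILMN_1775708, read 12206, 11852, 14378, 12206, 13959 and 12145 in high glucose. In low glucose it read 15447, 15294, 14816, 13632, 15399 and 14339.7. The groups overlapped, since high glucose replicates 3 and 5 lay above the lowest low glucose array, yet all 6 high glucose arrays lay below the low glucose median. The means were 12791 ± 1083 in high glucose and 14821 ± 721 in low glucose (SD, n = 6 each), a log2 change of -0.22 (SE 0.05, 95% interval -0.32 to -0.11) or 1.16-fold lower, with an adjusted p of 0.0028 (limma).

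SLC2A2 encodes GLUT2, the transporter of adult hepatocytes and of pancreatic beta cells, and its level did not differ measurably. The probe ILMN_1755720 read 1372, 1293, 1275, 1448, 1267 and 1501 in high glucose. In low glucose it read 1218, 1382, 1307, 1345.5, 1411 and 1468. The groups lay almost on top of each other, with means of 1359 ± 98.0 in high glucose and 1355 ± 86.7 in low glucose (SD, n = 6 each). The log2 change of 0.00 had a 95% interval of -0.13 to 0.14 and an adjusted p of 0.99, so a change of more than about 0.14 in either direction lay outside the interval.

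Whether these 3 isoforms changed differently was tested on the log2 ratio of their probes within each array, by a two-sided exact permutation test over the 924 splits of the arrays, adjusted over the 3 pairs. SLC2A1 fell by more than SLC2A2, with a difference in log2 change of -0.48 (adjusted exact p = 0.0032). SLC2A1 also fell by more than SLC2A3, by -0.26 (adjusted exact p = 0.0032), and in both pairs every high glucose array lay below every low glucose array. The difference between SLC2A3 and SLC2A2 was -0.22 and missed the threshold (adjusted exact p = 0.056). It passed when high glucose replicate 3 or 5 or low glucose replicate 6 was left out, with adjusted exact p of 0.022, 0.030 and 0.041. A ratio within an array shows unequal change only, and the levels of different probes cannot be compared because probes differ in how brightly they bind. The SLC2A3 probe may also bind transcripts of SLC2A14, a near-identical copy, so its ratios are uncertain as measures of SLC2A3 alone.

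**Figure D2:**
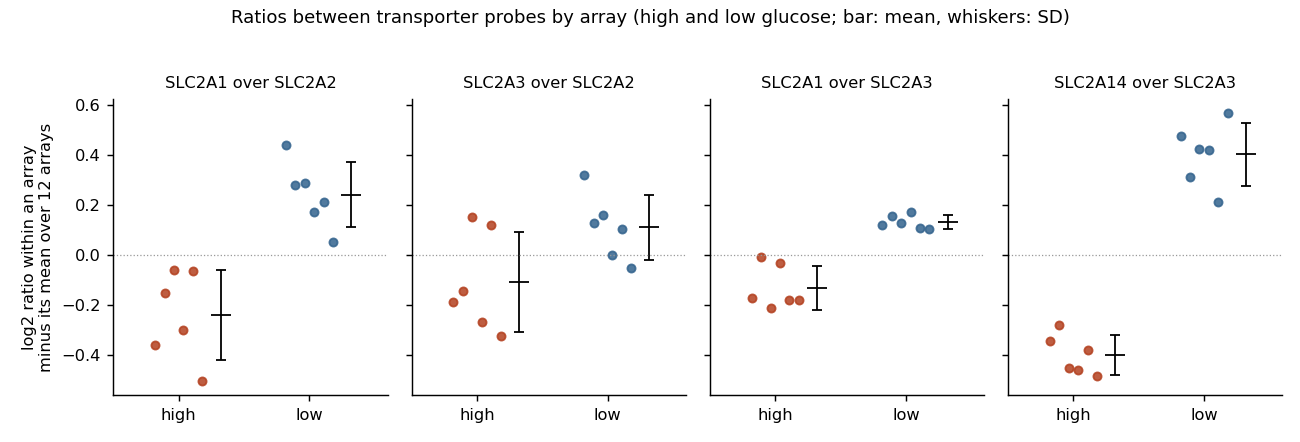
Log2 ratio of 2 transporter probes within each array, minus the mean of that ratio over the 12 arrays (vertical axis), for 4 pairs, high glucose left of low glucose, with mean and SD of 6 arrays. SLC2A1 over SLC2A2, SLC2A1 over SLC2A3 and SLC2A14 over SLC2A3 separate the groups, and SLC2A3 over SLC2A2 does not.

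SLC2A9 encodes GLUT9, which transports urate more than glucose and takes up urate in the liver, and it was read by 3 probes. The brightest of them, ILMN_1668312, read 1108, 1107, 1205, 1262, 1201 and 1219 in high glucose. In low glucose it read 1514, 1543.5, 1541, 1603.5, 1520.2 and 1575, so that no array of one group reached the range of the other. Its means were 1184 ± 62.9 in high glucose and 1549.5 ± 34.1 in low glucose (SD, n = 6 each), a log2 change of -0.39 (SE 0.06, 95% interval -0.51 to -0.27) or 1.31-fold lower, with an adjusted p of 1.2e-05 (limma). ILMN_1738406 averaged 155 ± 15.4 in high glucose and 169.5 ± 17.1 in low glucose, a log2 change of -0.13 with an adjusted p of 0.40 (limma). ILMN_1723803, near background, averaged 93.3 ± 5.92 in high glucose and 94.2 ± 5.40 in low glucose, a log2 change of -0.01 with an adjusted p of 0.95 (limma).

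Tested within arrays, the brightest SLC2A9 probe fell by more than ILMN_1738406, with a difference in log2 change of -0.26 (adjusted exact p = 0.017, 4 pairs of probes tested). This missed the threshold without high glucose replicate 1 (-0.19, adjusted exact p = 0.056), low glucose replicate 2 (-0.22, 0.061) or low glucose replicate 3 (-0.24, 0.052). ILMN_1668312 and ILMN_1723803 are annotated to the same transcript variant and ILMN_1738406 to another, and ILMN_1723803 read over 100 on only 2 of 12 arrays, so it could hardly have shown a fall. ILMN_1738406 read over 100 on all 12 arrays but is far dimmer than ILMN_1668312, and the part of background in their unequal change was not tested.

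SLC2A8 encodes GLUT8, a high-affinity transporter that sits on internal membranes rather than at the cell surface. Its probe, ILMN_1724609, read 3051, 2682, 2878, 2909, 2824 and 3078 in high glucose. In low glucose it read 3576, 3277, 3657, 3399, 3616 and 3029. Only low glucose replicate 6 came down into the range of the high glucose arrays, and all 6 high glucose arrays lay below the low glucose median. The means were 2903.5 ± 147 in high glucose and 3426 ± 242 in low glucose (SD, n = 6 each), a log2 change of -0.24 (SE 0.06, 95% interval -0.36 to -0.12) or 1.18-fold lower, with an adjusted p of 0.0038 (limma).

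SLC2A10 encodes GLUT10, an intracellular transporter whose loss causes arterial tortuosity. Its brighter probe, ILMN_2120247, read 2125 to 2534 in high glucose and 1995 to 2887 in low glucose, a log2 change of -0.10 (95% interval -0.26 to 0.06, adjusted p = 0.54 by limma). The dimmer probe, ILMN_1663351, averaged 352 ± 52.4 in high glucose and 329.7 ± 79.3 in low glucose, a log2 change of 0.12 (95% interval -0.15 to 0.39, adjusted p = 0.69). The low glucose arrays spread further than the high glucose ones on both probes, and the difference between the probes of 0.22 did not pass the test (adjusted exact p = 0.19). SLC2A6 encodes GLUT6, a transporter of lysosomal membranes known from leukocytes. Its probe averaged 1106 ± 72.6 in high glucose and 1031.5 ± 47.9 in low glucose, a log2 change of 0.10 (95% interval -0.03 to 0.23, adjusted p = 0.40).

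The remaining 3 members read near background. SLC2A4, the insulin-responsive transporter GLUT4 of muscle and fat, averaged 96.4 ± 11.1 in high glucose and 101.4 ± 9.26 in low glucose, a log2 change of -0.08 (95% interval -0.25 to 0.10, adjusted p = 0.69 by limma). SLC2A5, the fructose transporter GLUT5 of the small intestine, averaged 81.8 ± 6.99 in high glucose and 74.8 ± 4.02 in low glucose, a log2 change of 0.13 (95% interval -0.01 to 0.27, adjusted p = 0.27). SLC2A12, which encodes GLUT12, a second transporter reported to respond to insulin, averaged 79.9 ± 6.02 in high glucose and 76.0 ± 6.29 in low glucose, a log2 change of 0.07 (95% interval -0.07 to 0.22, adjusted p = 0.64). For probes at this brightness a level in RNA cannot be told from background, and 4 of the 13 probes averaged below 100 over the 12 arrays. Of 8 markers of muscle and fat, the tissues that normally carry GLUT4, 3 averaged below 100 in both groups (ADIPOQ, PLIN1 and FABP4), and CKM, ACTA1 and LEP read over 100 on all 12 arrays. Their summed intensity was 2109.8 to 2510.0 in high glucose and 2779 to 3756 in low glucose, and 1 of the 8 fell, where 12.2% of 18852 genes fell and 15.4% rose when each gene was taken from its brightest probe. It was ACTA1, skeletal muscle actin (1390 ± 187 in high glucose and 2330 ± 337 in low glucose, log2 change -0.74, adjusted p = 4.4e-07 by limma).

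**Figure D3:**
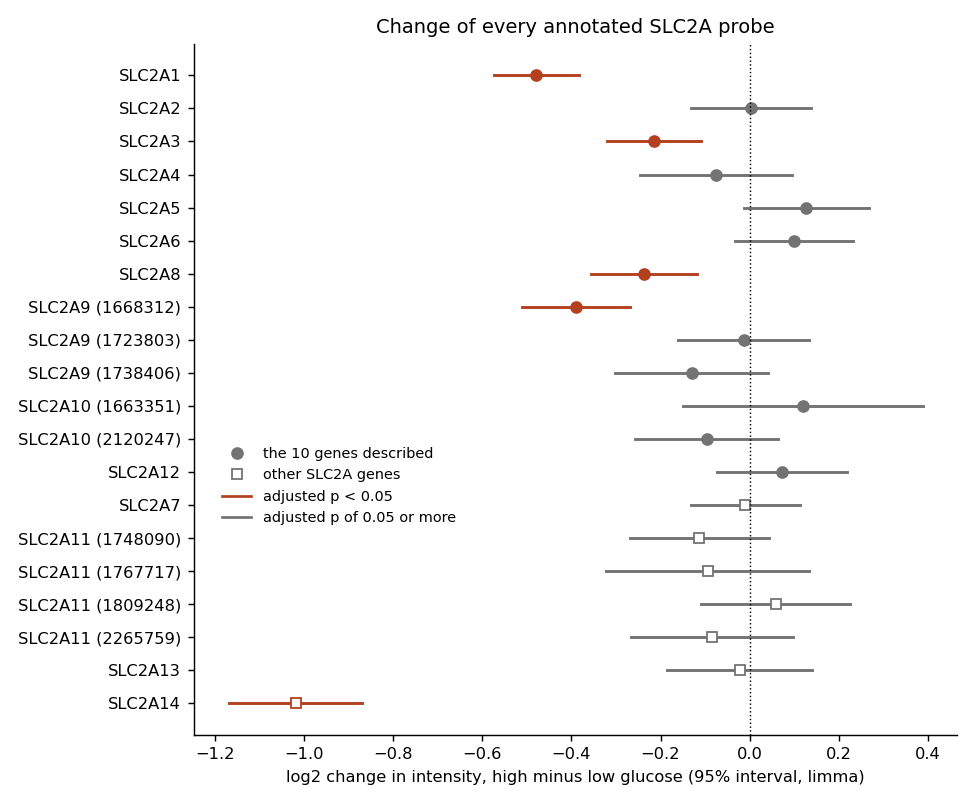
Log2 change in intensity, high minus low glucose, with its 95% interval (horizontal axis) for each of the 20 SLC2A probes, circles for the 10 genes described and squares for the other 4 SLC2A genes. Of these probes 5 fell, SLC2A14 by the most at -1.02, and every other interval spans 0. Of all probes 7.43% fell, a share not matched for brightness.

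The SLC2A genes outside the 10 were taken from a list of 4 with 7 probes: SLC2A7, SLC2A11, SLC2A13, which encodes a proton-myoinositol cotransporter, and SLC2A14, a recent duplicate of SLC2A3 known mainly from testis. SLC2A14 fell and the other 3 did not pass the test, where 12.2% of all genes fell and 15.4% rose. Its probe, ILMN_1668865, read 517, 525, 564, 477, 576 and 467 in high glucose, and 1155, 1021, 1071, 981, 959.8 and 1145 in low glucose. The groups lay far apart, at means of 521 ± 44.2 in high glucose and 1056 ± 82.7 in low glucose (SD, n = 6 each), a log2 change of -1.02 (SE 0.07) or 2.03-fold lower, with an adjusted p of 3.8e-11 (limma). In a comparison added after the values were seen, SLC2A14 fell by more than SLC2A3 within arrays, by -0.80 (two-sided exact permutation p = 0.0022, the smallest that 924 splits allow). Since the 2 genes are near-identical copies and the probe sequences were not examined here, either probe may bind transcripts of both, and each value is uncertain as a measure of 1 gene. The SLC2A7 probe changed by -0.01, the SLC2A13 probe by -0.02, and the 4 SLC2A11 probes by -0.11 to 0.06.

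The genes whose arrays followed SLC2A1 most closely, among 18837 genes outside the family, were RIMKLA, PPP1R13B and PFKP, with Pearson r of 0.983, 0.982 and 0.981 over the 12 arrays as a description. RIMKLA encodes an enzyme that makes N-acetylaspartylglutamate, PPP1R13B a p53-binding protein, and PFKP the platelet form of phosphofructokinase. All 3 fell in high glucose. RIMKLA averaged 455 ± 28.8 in high glucose and 769 ± 54.7 in low glucose, PPP1R13B averaged 598 ± 43.1 in high glucose and 844 ± 36.7 in low glucose, and PFKP averaged 1064 ± 79.9 in high glucose and 1713 ± 97.7 in low glucose (SD, n = 6 each). These correlations are carried largely by the difference between the groups, and within the 6 arrays of 1 group they were lower, at 0.68 to 0.81 in high glucose and 0.75 to 0.87 in low glucose.

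Among the 6 sodium-dependent SLC5A cotransporters and SLC50A1, 1 of 7 genes fell and 0 rose, against 12.2% and 15.4% of all genes. The one that fell was SLC5A11, a sodium-myoinositol cotransporter that also carries glucose, at 268 ± 14.9 in high glucose and 374.4 ± 61.97 in low glucose (log2 change -0.47, adjusted p = 2.6e-04 by limma). The median of the list was -0.00 and that of all genes 0.01.

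The list of steps that trap sugars in the cell, or release glucose again, held changes in both directions. Of 12 genes for phosphorylation of glucose and fructose and for release of glucose-6-phosphate, 4 rose and 4 fell, where 15.4% of all genes rose and 12.2% fell, with a median log2 change of 0.03. The falls were in HK1 (-0.38), HK2 and HKDC1 (-0.46), which phosphorylate glucose, and in GCKR. The rises were in KHK and TKFC (0.50), of fructose use, and in G6PC1 and SLC37A4 (0.21), of glucose-6-phosphate release. HK3 and ADPGK, which also phosphorylate glucose, did not pass the test, so no measured glucose-phosphorylating gene of the list rose. G6PC1, the catalytic subunit of the hepatic glucose-6-phosphatase, averaged 314 ± 43.4 in high glucose and 89.8 ± 7.10 in low glucose (log2 change 1.80, adjusted p = 1.6e-14 by limma). By qPCR the study reported the opposite direction for this gene, a decrease in high glucose. Why the array and the qPCR differ was not tested. KHK, which phosphorylates fructose, averaged 1364 ± 120 in high glucose and 671 ± 27.3 in low glucose (1.02, adjusted p = 1.0e-11). Of the 3 KHK probes 2 rose and the other did not pass the test. HK2, the high-affinity hexokinase of muscle and tumours, averaged 1452 ± 125 in high glucose and 2757 ± 344 in low glucose (-0.92, adjusted p = 7.8e-10). GCKR, the inhibitory partner of liver glucokinase, averaged 311 ± 26.7 in high glucose and 453 ± 34.9 in low glucose (-0.55, adjusted p = 4.0e-06). The groups did not overlap for G6PC1, KHK, HK2 or GCKR.

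The genes that move GLUT proteins to and from the surface held the largest rise seen in these lists. Of 16, 6 rose (15.4% of all genes) and 2 fell (12.2% of all genes), so the falls were at the share of all genes, and the median was 0.05. TXNIP, the arrestin-like protein that promotes internalisation of GLUT1, averaged 788 ± 46.9 in high glucose and 105 ± 14.8 in low glucose (log2 change 2.92, adjusted p = 7.9e-19 by limma), with groups that did not overlap. Its relative ARRDC4, another arrestin known to lower glucose uptake, averaged 261 ± 14.9 in high glucose and 110.2 ± 10.1 in low glucose (1.25, adjusted p = 1.9e-12). Another arrestin of this family, ARRDC3, went the other way, at 291 ± 26.1 in high glucose and 1086 ± 192 in low glucose (-1.89, adjusted p = 3.6e-14). RAB10, the small GTPase of GLUT4 vesicles in fat cells, averaged 7039 ± 469 in high glucose and 10649 ± 890 in low glucose (-0.60, adjusted p = 7.9e-09).

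**Figure D4:**
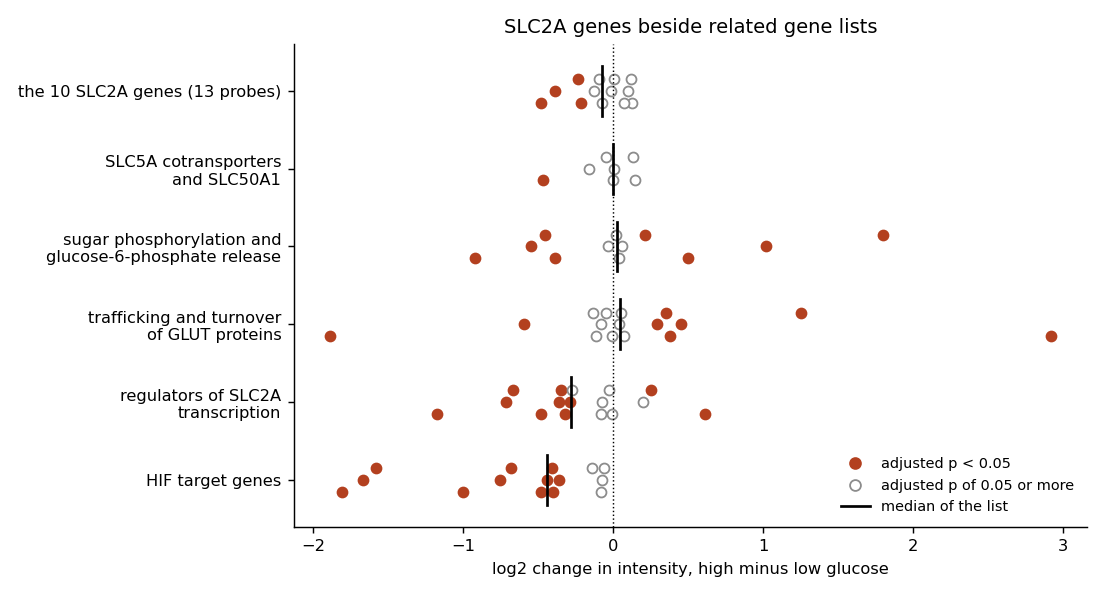
Log2 change in intensity, high minus low glucose (horizontal axis), of the 13 SLC2A probes and of the genes of 5 related lists, each gene from its brightest probe; filled points passed an adjusted p of 0.05 and the bar is the median of the list. The SLC2A probes span -0.48 to 0.13, TXNIP stands alone at 2.92, and the changes of the HIF targets are all below 0.

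Among 16 transcription factors and cofactors that act on SLC2A genes, 8 fell and 2 rose, where 12.2% of all genes fell and 15.4% rose, with a median of -0.28. FOXA3, a forkhead factor that maintains GLUT2 in fasted mouse liver, averaged 2543 ± 192 in high glucose and 5800 ± 1023 in low glucose (log2 change -1.17, adjusted p = 3.8e-11 by limma). MYC, an activator of SLC2A1, averaged 6219 ± 193 in high glucose and 10184 ± 573 in low glucose (-0.71, adjusted p = 9.5e-12), and PPARG, the nuclear receptor of fat cells, 3575 ± 191 in high glucose and 5672 ± 147 in low glucose (-0.67, adjusted p = 1.0e-10). Of the 4 PPARG probes 2 fell and the others did not pass the test. SLC2A4RG, which binds the SLC2A4 promoter, rose, at 769 ± 52.1 in high glucose and 502 ± 31.1 in low glucose (0.61, adjusted p = 1.3e-07). HIF1A, EPAS1, ARNT and MLXIPL were chosen after their values were seen. HIF1A, an oxygen-regulated subunit of HIF, averaged 1047 ± 66.8 in high glucose and 1462 ± 129 in low glucose (-0.48, adjusted p = 6.1e-06). EPAS1, another such subunit, averaged 3625 ± 228 in high glucose and 4534 ± 355 in low glucose (-0.32, adjusted p = 1.7e-04). Their partner ARNT read near background and did not pass the test (-0.07, adjusted p = 0.73). MLXIPL, which encodes ChREBP, the glucose-responsive factor the series is about, averaged 1075 ± 53.7 in high glucose and 941 ± 93.9 in low glucose (0.20, adjusted p = 0.057).

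The HIF target genes other than SLC2A1 include enzymes, growth factors and stress genes that cells switch on when oxygen is short. Of 15, 11 fell and 0 rose, where 12.2% of all genes fell and 15.4% rose, and the median was -0.44, against 0.01 over all genes. PFKFB3, the kinase that raises the glycolytic activator fructose-2,6-bisphosphate, averaged 1788 ± 156 in high glucose and 6295 ± 915 in low glucose (log2 change -1.81, adjusted p = 2.5e-15 by limma). VEGFA, the angiogenic growth factor, averaged 486 ± 37.6 in high glucose and 1543 ± 53.6 in low glucose (-1.67, adjusted p = 3.5e-16). Of the 3 VEGFA probes 2 fell and the other did not pass the test. ADM, the vasodilator peptide adrenomedullin, averaged 7262 ± 436 in high glucose and 21701 ± 1519 in low glucose (-1.58, adjusted p = 4.2e-18), and NDRG1, a hypoxia-induced differentiation gene, 1192 ± 93.1 in high glucose and 2402 ± 382 in low glucose (-0.999, adjusted p = 1.3e-09). SLC2A1, at -0.48, lay close to the median of this list. What part oxygen, MYC or any other regulator has in the fall of SLC2A1 was not tested.

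Most cell type markers did not pass the test, and the share of hepatocyte markers called was near that of all genes (15.4% rose and 12.2% fell). Of 8 hepatocyte markers 1 rose and 1 fell, FGB, a fibrinogen chain (3171 ± 265 in high glucose and 2194 ± 102 in low glucose, log2 change 0.53, adjusted p = 1.8e-07 by limma), and APOB, the apolipoprotein of liver lipoproteins (9495 ± 893 in high glucose and 11013 ± 773 in low glucose, -0.22, adjusted p = 0.0079). Of 9 markers of fibroblasts, endothelium and leukocytes 2 rose, CD14 (472 ± 36.1 in high glucose and 294 ± 21.5 in low glucose, 0.68, adjusted p = 6.8e-08) and VWF (72.6 ± 6.21 in high glucose and 62.9 ± 4.52 in low glucose, 0.20, adjusted p = 0.023). PDGFRB, a growth factor receptor of mesenchymal cells, fell (505 ± 39.9 in high glucose and 745 ± 92.8 in low glucose, -0.55, adjusted p = 9.8e-06). The VWF probe read below 100 on every array, and its call was lost in 6 of the 12 fits that left out 1 array. PECAM1, of endothelium and leukocytes, averaged 208 ± 19.6 in high glucose and 209 ± 27.2 in low glucose and did not pass the test. The 6 markers below 100 in both groups were COL1A1, COL3A1, VWF, CDH5, PTPRC and CD3E, while PDGFRB, PECAM1 and CD14 read over 100 on all 12 arrays. All 12 cultures were of the same line, and in bulk RNA of this kind, fewer cells expressing a gene and less RNA per cell cannot be told apart.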

How the data were processed

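Total RNA of 12 HepG2 cultures, 6 per group by the sample labels, was hybridised by the authors to Illumina HumanHT-12 BeadChips. The authors deposited linear intensities after quantile normalization (sorted values of any 2 arrays differed by at most 0.825), with no background subtraction evident from the lowest intensity of 47.2. The submitters' processing notes name GenomeStudio 2010.1, and the methods name limma and CyberT without settings. A table of signals and detection p-values before normalization was not used, because the names of its 24 columns (12 signal, 12 detection) match no sample label. Chip position and scan batch are not given in the sources used here.

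Gene symbols came from the platform annotation, brought to current names (28098 probes with 1 symbol, 13 with several, 20692 with none, of which the first kind was used). All 48803 probes entered 1 unfiltered fit of log2 intensity on group by limma (version 3.58.1, R 4.3.3; moderated variances follow a trend in brightness), and p-values were adjusted after Benjamini and Hochberg at a threshold of 0.05. Genes of a list were taken from the probe with the highest mean. The shares of all genes that rose or fell were not matched to the lists for brightness. Differences between probes were tested on log2 ratios within arrays by two-sided exact permutation, whose smallest p is 0.0022. The number of arrays limits the precision (median log2 SD within groups 0.125). In simulated data with 200 of 48803 probes changed, limma recovered 89% of the probes changed by 0.5 and 100% of those changed by 1 on the log2 scale, with 4.55% false calls, and a Cyber-T style test 93% and 100%, with 2.03% false. No change under 0.5 was simulated, so the recovery of changes as small as the 4 SLC2A falls was not measured. The share of changed probes was also far below the share called in the real data.

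Named were every SLC2A probe, up to 4 called genes with the largest change in each list and the 3 genes most alike SLC2A1. HIF1A, EPAS1, ARNT and MLXIPL were added after their values were seen. So were HK1, HK3, HKDC1, ADPGK, TKFC, SLC37A4 and the HIF targets that did not pass the test. The members and lists were chosen with earlier results of these data known. Alternatives were log2(intensity + 16), normexp (offset 50), probes over 100 on at least 6 arrays, the Cyber-T style test (window of 101 probes, weight 10 on the prior), no trend, a replicate block, array weights, 1 probe per gene, each array left out, and, added after seeing the data, centring on 94 ribosomal protein probes. Binding, siRNA and qPCR data of the study were not analysed here.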

Additional observations from a re-analysis of the deposited data

Results flagged for a closer look

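Of 92 groups of 6 arrays on 46 probes, 5 had an array set apart from the other 5 by more than Dixon's 95% critical value, and chance gives about 1 group in 20. In SLC2A4, low glucose replicate 3 read 119, against 92.5 to 101.05 in the other low glucose arrays. In the SLC2A9 probe ILMN_1738406, high glucose replicate 1 read 184, against 142 to 156 in the others. In G6PC1, high glucose replicate 1 read 400.02, against 288 to 318 in the others, and low glucose replicate 1 read 75.6, against at least 91.2 in the others. In MYC, high glucose replicate 1 read 5854, against 6215 to 6413 in the others. Of these 5 values, 3 belong to high glucose replicate 1.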

How the results depend on the processing

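The 4 SLC2A falls and the absence of a rise held under every alternative, and all 4 falling probes kept their side of the threshold, with adjusted p of at most 0.025 for SLC2A3 and 0.014 for SLC2A8. Over all probes 7076 to 8509 were called, or 5646 with 1 probe per gene and 7385 to 7781 with 1 array left out. Centring on ribosomal protein genes moved the median of all probes by 0.00059. Among the SLC5A genes 2 rather than 1 fell with the filter on intensity over 100 and likewise with 1 probe per gene, and the count of rising regulators was 3 rather than 2 under both. The falling regulators numbered 9 rather than 8 under these settings, the block and array weights, and 7 or 8 with 1 array left out. Over all probes, deviations of same-numbered arrays correlated at -0.036 to 0.013, with 0 of 6 pairs over 0.1, and 3 of 12 arrays correlated best with their own number. Most of these probes are dim, so this does not tell whether same-numbered cultures shared a day or a passage. With the replicate block 7760 probes were called, and the 2 differences of SLC2A9 probe ILMN_1668312, -0.38 and -0.26, from ILMN_1723803 and ILMN_1738406 both had an adjusted exact p of 0.0625, where 64 sign flips allow no p under 0.031 before adjustment over the 4 pairs, so the block could not show less for these 2, and no count of SLC2A calls changed. With each array left out, the difference between SLC2A9 probes ILMN_1668312 and ILMN_1738406 ranged from -0.29 to -0.19 and that between SLC2A3 and SLC2A2 from -0.27 to -0.18. VWF lost its call in 6 of 12 such fits and when centred on ribosomal protein genes (adjusted p = 0.059). ILMN_1723803 is near background, so its -0.38 says little of RNA. The cause of these changes was not tested. Dim probes limit what can be seen of SLC2A4, SLC2A5, SLC2A12 and 1 SLC2A9 probe.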
